A study of Danio rerio with 45 samples.

Results

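The vegetal and the animal end of the zebrafish (Danio rerio) embryo were compared at 3 hours post fertilisation (hpf), when the embryo has about 1000 cells and its own genome begins to be transcribed. Embryos had been cut along the animal-vegetal axis into 5 sections, A (most animal) to E (most vegetal), and the total RNA of each section was sequenced after removal of ribosomal RNA (TOMO-seq). The comparison takes the 3 libraries of section E against the 3 libraries of section A, 6 of the 40 libraries with counts, and sections B, C and D of the same embryo samples show where along the axis a difference lies. The same ends at 1 hpf (6 libraries, about 4 cells) and at 2 hpf (4 libraries, about 64 cells) serve to show which differences were present before. The labels give no treatment, and neither the strain nor the number of embryos in a replicate is given in the sources used here. Each library was made from 20 ng of RNA, so the values compare shares within sections and not amounts per embryo.

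The zebrafish egg is polar before it is fertilised. RNAs deposited by the mother are anchored at the vegetal cortex, among them those of the dorsal determinant machinery, while the cytoplasm streams to the animal pole and is cleaved into the blastoderm. At the mid-blastula transition the blastoderm cells, which sit on a large uncleaved yolk cell, start zygotic transcription, and the microRNA miR-430 is among the first products and clears maternal RNAs. Germ plasm is the maternal RNA and protein material that is inherited by the future germ cells.

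Section A held between 4316597 and 5398317 counts per library and section E between 1355607 and 2327972, with 1355607 in section E of replicate 1. Replicate 3 stood apart. Its deviations from the section means correlated at 0.67 between A and E, while those of replicates 1 and 2 correlated at 0.373 and 0.38 with their own number and at 0.304 and 0.257 with each other's. All 6 vegetal markers (dazl, hwa, sybu, grip2a, celf1, trim36) were higher in E and all 3 maternal animal markers (exd2, pou5f3, ccnb1) were higher in A. The comparison was chosen with earlier results of these data known, so the markers are no independent check of the labels' positions. The 8 listed yolk syncytial layer genes, the 13 maternal liver and blood genes and the keratins of the enveloping layer were not analysed here. Of 4 ovarian follicle cell genes tested, 0 were called by edgeR, 0 at an unadjusted p under 0.05 and 1 by DESeq2.

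Of 12625 rows tested, 1023 were higher in E (8.1%) and 946 were higher in A (7.49%), 15.6% in all, by edgeR's quasi-likelihood test with the replicate as a block and Benjamini-Hochberg adjustment at 0.05. At least 2-fold differences were more often vegetal, with 537 rows higher in E (4.25%) and 290 higher in A (2.3%). The same direction was seen in 3 of 3 replicates for 992 of the rows higher in E and 931 of the rows higher in A. The libraries of E and A did not overlap in 893 of the 1023 rows and 792 of the 946 rows. Separate groups are thus the rule among called rows. Scaling by library totals, which moves the median of all rows from -0.02 to -0.22 on the log2 scale, gave 721 and 2346. Without replicate 3 the counts were 722 and 638.

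**Figure D1:**
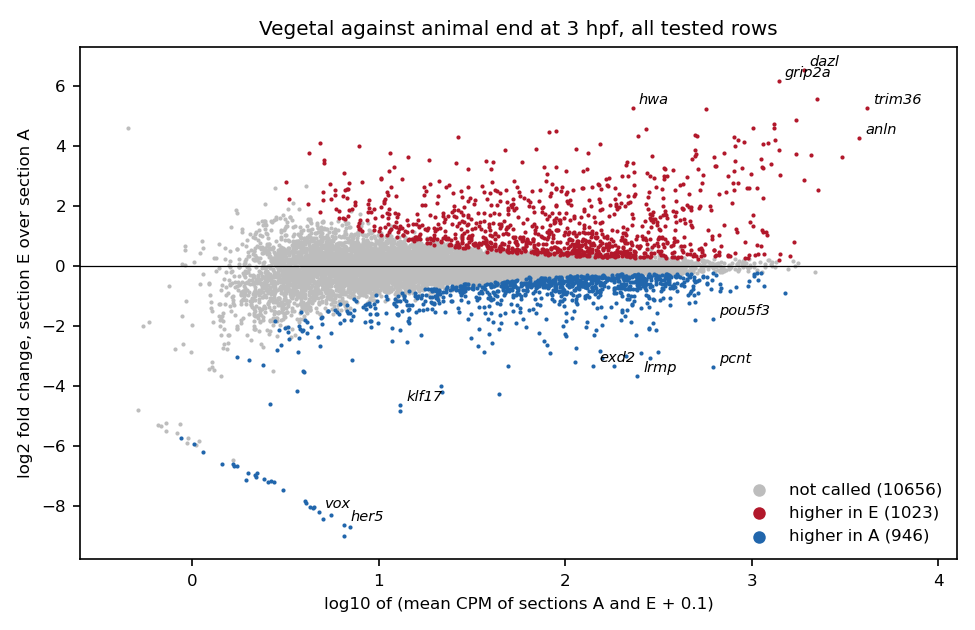
Each point is 1 of the 12625 tested rows, with its mean level in sections A and E on the x axis (log10 of CPM + 0.1) and its fitted log2 fold change of E over A on the y axis. The rows higher in E reach high levels, while the arc of points at the lower left holds rows with no or almost no counts in E, whose fitted fold depends on the prior count.

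The rows called toward E include very abundant RNAs. The 1023 rows higher in E took 11.7%, 11.7% and 11.8% of the counts in section A of replicates 1 to 3, and 30.4%, 26.2% and 31.7% in section E. The direction of this difference is fixed by the choice of the rows, and its size is a description. Section D, which shared the fit but was not one of the compared ends, held 17.1% to 23.1%. The 946 rows higher in A went from 17.0% to 17.3% of counts in A to 8.79% to 10.05% in E. Since the values are shares, fewer cells of a type and less RNA per cell cannot be told apart in any of these results.

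The difference rose steeply toward the vegetal tip. Over the 1023 rows higher in E, the median log2 ratio to section A was 0.08 in B, 0.20 in C, 0.53 in D and 1.05 in E (CPM + 0.5). Of these rows 991 had their highest mean in E and 530 (51.8%) were in strict order from A to E. The rows higher in A were less concentrated at the pole itself. Of the 946, 630 had their highest mean in A, 186 in B, 95 in C and 35 in D, and 896 had their lowest mean in E. The choice of both sets fixes the direction between E and A and favours these ends as the highest or lowest section. The counts of highest and lowest sections are thus descriptions.

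Several dorsal determinant and egg polarity RNAs were among the largest differences toward the vegetal end. The RNA of trim36, a ubiquitin ligase that in frog eggs is needed for the vegetal microtubules of cortical rotation, was at 226, 204 and 200.5 CPM (counts scaled to the size of the library) in section A of replicates 1 to 3 and at 9412, 7341 and 7483 CPM in section E. The RNA of sybu, which encodes a linker between kinesin and its cargo, was at 81.3, 86.9 and 108 CPM in A and at 4672, 3662 and 4819 CPM in E. In both genes every E library was far above every A library, with log2 fold changes of 5.26 ± 0.23 (standard error, SE; adjusted p = 4.93e-13) for trim36 and 5.56 ± 0.25 (adjusted p = 5.3e-13) for sybu. The scaffold gene grip2a, which acts in the same vegetal pathway, was at 28.8 to 48.3 CPM in A and at 2099 to 3290 CPM in E (6.16 ± 0.28, adjusted p = 6.14e-13). The gene hwa, which encodes the maternal membrane protein Huluwa that stabilises beta-catenin and sets the dorsal organiser, was scarcer, with 9.78, 9.70 and 16.4 CPM in A and 517, 367 and 458 CPM in E. Its groups did not overlap either (5.25 ± 0.27, adjusted p = 2.57e-12). In section D, next to the vegetal tip, the means were 2685 CPM for trim36, 1268 CPM for sybu, 648 CPM for grip2a and 148 CPM for hwa, all between those of C and E.

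The Wnt pathway was split between the ends. Of 22 tested genes of the dorsal determinant and maternal Wnt list, 7 had more RNA in E and 4 in A. Of all rows, 8.1% were called toward E and 7.49% toward A. The list median was 0.02 against -0.02 over all rows, so the list had no common direction. Besides the 4 genes above, lef1, a transcription factor that works with beta-catenin, was at 17.2 to 33.1 CPM in A and 453 to 551 CPM in E (4.55 ± 0.22, adjusted p = 1.28e-12). Beta-catenin itself is coded by 2 genes in zebrafish. The gene ctnnb2 was at 630 to 727 CPM in A and 1039 to 1416 CPM in E (0.80 ± 0.10, adjusted p = 4.57e-06), whereas ctnnb1 was at 480 to 555 CPM in A and 476 to 592 CPM in E (0.06 ± 0.08, adjusted p = 0.732). Overlapping ranges were seen for ctnnb1 and separate ones for ctnnb2.

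The 4 members higher in A were a receptor, a co-receptor, a repressor and a scaffold, named here after their values were seen. The scaffold gene axin1, whose protein holds the complex that degrades beta-catenin, was at 459, 449 and 489 CPM in A and at 96.4, 130.2 and 154 CPM in E (-1.89 ± 0.16, adjusted p = 6e-09). The receptor gene fzd7b was at 202 to 226 CPM in A and 78.5 to 83.1 CPM in E, the co-receptor gene lrp5 at 105 to 115 and 50.8 to 61.8 CPM, and the repressor gene tcf7l1a at 62.6 to 104 and 23.7 to 48.9 CPM. For all 4 the libraries of A lay above those of E, and axin1 stepped down through every section.

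Germ plasm RNAs did not share a single pattern. Of the 16 listed genes tested, 7 passed toward E and 2 toward A, beside 8.1% and 7.49% of all rows. The list median was 0.50. The list's counts were 7 and 2 under all 12 alternatives. The gene dazl, which encodes an RNA-binding protein of germ cells, was at 42.1, 37.9 and 45.3 CPM in A and at 4217, 2798 and 4217 CPM in E, the largest fold change toward E among the named rows (6.51 ± 0.36, adjusted p = 7.16e-12). The gene celf1, which encodes another RNA-binding protein, was at 111 to 117 CPM in A and at 2593 to 3850 CPM in E (4.87 ± 0.22, adjusted p = 5.63e-13). Both genes kept their peak in the vegetal tip, with means of 1434 CPM for dazl and 1255 CPM for celf1 in section D.

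Other germ plasm RNAs extended further up. The mean of ddx4, the vasa helicase gene, was 194 CPM in A, 315 in B, 456 in C, 503 in D and 447 in E, so its highest section was D, although E was above A (1.18 ± 0.23, adjusted p = 0.000704). The gene hook2, which encodes a linker to microtubules, had 991 CPM in D and 932 CPM in E against 143 CPM in A. The gene dnd1, whose protein shields germ cell RNAs from microRNAs, climbed section by section, with 40.5 CPM in A and 288 CPM in E (2.89 ± 0.23, adjusted p = 1.95e-09). The germ plasm organiser gene buc was at 1134 to 1299 CPM in A and 1089 to 1586 CPM in E, with overlapping libraries (0.07 ± 0.09, adjusted p = 0.691). Its sign was not stable, at -0.14 with library totals and -0.05 without replicate 3. The 2 members higher in A, tdrd6 (-0.67 ± 0.10) and piwil2 (-1.14 ± 0.15), belong to the Tudor and Piwi families of the piRNA pathway. In the piRNA list of 19 tested genes, 3 passed toward E and 5 toward A, beside 8.1% and 7.49% of all rows.

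**Figure D2:**
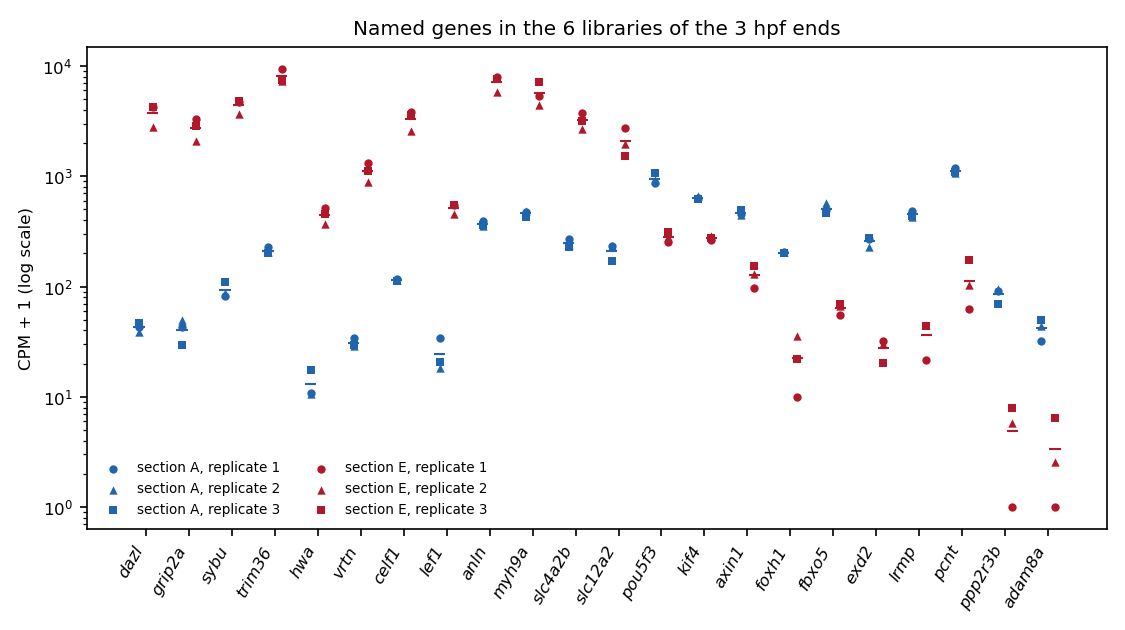
CPM + 1 on a log scale in each library of section A (blue) and section E (red), with 1 marker shape per replicate and a bar at the mean of 3, for 12 genes higher in E (left) and 10 higher in A (right). In every gene shown the 3 libraries of one end lie apart from the 3 of the other, as in most called rows (893 of 1023 toward E, 792 of 946 toward A).

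A few actomyosin RNAs were many times more abundant at the vegetal end. The gene anln encodes anillin, which links actin, myosin and septins at the cleavage furrow. It was at 390, 354 and 362 CPM in A and at 7931, 5799 and 7613 CPM in E (4.27 ± 0.18, adjusted p = 3.62e-13). The non-muscle myosin heavy chain gene myh9a was at 428 to 485 CPM in A and at 4430 to 7161 CPM in E (3.62 ± 0.19, adjusted p = 2.57e-12). The myosin light chain gene myl12.1 was at 89.8 to 104 CPM in A and 1296 to 1957 CPM in E (4.13 ± 0.20, adjusted p = 9.58e-13). The heavy chain gene myh9a and the light chain gene myl12.1, both named for their large differences, thus stood at the same end. Outside this list the formin gene fhod1, whose protein assembles actin cables, was at 94.0 to 114 CPM in A and 1894 to 2964 CPM in E (4.58 ± 0.20, adjusted p = 3.94e-13).

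The whole list of 105 actin, myosin and cytokinesis genes was balanced in number and not in amount. There were 14 calls toward E and 14 toward A, with a median of -0.03, but 8 against 1 among differences of at least 2-fold. Of all rows, 8.1% were called toward E and 7.49% toward A, or 4.25% and 2.3% with at least 2-fold differences. With library totals the counts were 8 and 23. The summed level of the list was 14101 to 14523 CPM in A and 25778 to 32205 CPM in E. Differences on the animal side were smaller, such as those of septin7b (-0.68 ± 0.15) and the RhoA activator gene ect2 (-0.49), both named after their values were seen. The cytoplasmic actin gene actb2 was slightly vegetal, with 1369 to 1481 CPM in A and 1594 to 1939 CPM in E (0.33 ± 0.07, adjusted p = 0.00182). Library totals moved the median of all rows from -0.02 to -0.22, so the size of such a small difference depends on the scaling.

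Solute carriers, the membrane transporters of ions, amino acids and metabolites, had more calls toward E than toward A, beside 8.1% and 7.49% of all rows. Of 189 tested, 25 passed toward E and 7 toward A, with a median of 0.11. Among differences of at least 2-fold the counts were 17 and 5, beside 4.25% and 2.3% of all rows. With library totals 20 and 14 passed. Their summed level was 11157 to 11490 CPM in A and 18981 to 22645 CPM in E. The chloride-bicarbonate exchanger gene slc4a2b was at 271, 237 and 228 CPM in A and at 3757, 2695 and 3201 CPM in E (3.71 ± 0.15, adjusted p = 3.62e-13). The sodium-potassium-chloride cotransporter gene slc12a2 was at 168 to 232 CPM in A and 1532 to 2762 CPM in E (3.27 ± 0.13, adjusted p = 3.62e-13), and the amino acid transporter gene slc7a6 at 68.6 to 82.5 and 696 to 1112 CPM (3.66 ± 0.16, adjusted p = 3.94e-13). Carriers of chloride and of amino acids were thus among the most vegetal members. On the animal side, the zinc transporter gene slc39a6 was at 204 to 208 CPM in A and 49.8 to 51.9 CPM in E, a narrow spread in both groups.

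Several other vegetal RNAs were as strongly enriched and came from different lists. The calcium-calmodulin kinase gene camk2g1 was at 75.0 to 106 CPM in A and 1288 to 1836 CPM in E (4.19 ± 0.20, adjusted p = 1.11e-12). The histone mRNA binding gene slbp2 was at 130.1 to 144 and 1748 to 2962 CPM (4.11 ± 0.24, adjusted p = 1.22e-11), and its relative slbp at 167 to 220.1 and 678 to 781 CPM (1.97 ± 0.12). The gene map3k1, which encodes a kinase at the head of a stress cascade, was at 272 to 311 CPM in A and 2960 to 4552 CPM in E. The genes vrtn (5.22 ± 0.22), ctdsplb (4.72 ± 0.21) and bach2a (4.59 ± 0.24) were also among the 12 largest differences, with bach2a coding for a transcription factor of the basic leucine zipper kind. The row fer (4.49 ± 0.25), which encodes a tyrosine kinase, is 1 of several rows of its symbol, and how reads were shared among them is uncertain. The gene raver1, which encodes an RNA-binding protein, was at 626 to 671 CPM in A and 2453, 3186 and 5932 CPM in E, with replicate 3 high.

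**Figure D3:**
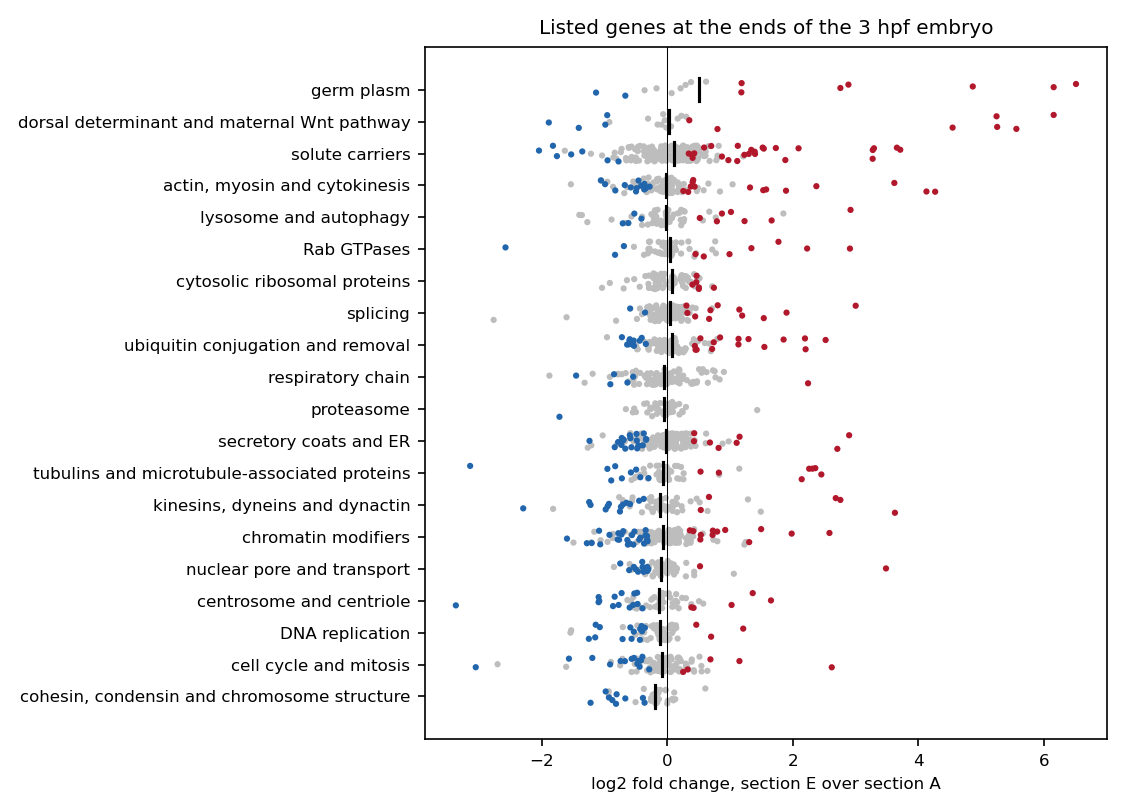
Log2 fold change of E over A of each tested member of 20 gene lists, red where called higher in E, blue where called higher in A, grey where not called, with a black bar at the list median. Medians lie near 0 apart from germ plasm at 0.50, and the long vegetal tails of the dorsal determinant, solute carrier and actomyosin lists are made by few members.

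The lists of centrosome, chromosome and cell cycle genes had more calls toward A than toward E, beside 7.49% of all rows called toward A, but most of their members were not called. Of 62 centrosome and centriole genes tested, 14 passed toward A and 5 toward E, with a median of -0.13. The gene pcnt, which encodes pericentrin, the scaffold of the pericentriolar material, was at 1190, 1073 and 1096 CPM in A and at 62.1, 102 and 172 CPM in E (-3.37 ± 0.26, adjusted p = 1.57e-09). Its level was nearly flat through B and C at 1057 and 1034 CPM, and fell by section D to 524.5 CPM. The gene lrmp, whose product attaches the nucleus to the centrosome in the zebrafish zygote, had the same shape, with 428 to 483 CPM in A and 20.4 to 43.4 CPM in E (-3.65 ± 0.29, adjusted p = 2.08e-09) and a mean of 439 CPM in C. Among the centrosome genes higher in E were nin, which encodes ninein (380 to 414 CPM in A, 886 to 1129 CPM in E), and cntln (1.65 ± 0.27).

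Of 36 cohesin, condensin and chromosome structure genes, 9 passed toward A and 0 toward E by edgeR and by DESeq2, with a median of -0.20, and 13 and 0 had an unadjusted p under 0.05. The chromokinesin gene kif4 was at 620.2 to 664 CPM in A and 265 to 284 CPM in E (-1.22 ± 0.11, adjusted p = 1.72e-08). In the DNA replication list 13 of 64 passed toward A and 3 toward E, and in the cell cycle list 14 of 103 and 5. The gene fbxo5, which encodes the inhibitor Emi1 of the anaphase-promoting complex, was at 493, 570 and 460.2 CPM in A and at 53.9, 65.6 and 68.2 CPM in E (-3.05 ± 0.23, adjusted p = 1.48e-09). The mitotic kinase gene aurka was at 411 to 545 and 138 to 181 CPM (-1.57 ± 0.10, adjusted p = 8.86e-11), and the cyclin gene ccnb1 at 1912 to 2042 and 903 to 1127 CPM (-0.91 ± 0.09). In each of these genes the A libraries were all above the E libraries, as in 792 of the 946 rows called toward A. The gene cdk6 went the other way, at 14.0 to 17.9 CPM in A and 56.6 to 141 CPM in E (2.62 ± 0.25, adjusted p = 5.7e-08).

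Motor and chromatin genes were called in both directions, beside 8.1% of all rows toward E and 7.49% toward A. Their calls toward E were near the share of all rows, and their calls toward A were above it. Of 65 kinesin, dynein and dynactin genes, 13 passed toward A and 5 toward E, and kif2a, which encodes a kinesin that takes microtubules apart, was the most vegetal with 90.03 to 97.1 CPM in A and 841 to 1353 CPM in E (3.63 ± 0.19). Of 140 chromatin modifiers, 25 passed toward A and 12 toward E. Histone H3 lysine 4 methyltransferase genes were among the first, as with kmt2d at 634 to 752 CPM in A and 284 to 324 CPM in E (-1.20 ± 0.13, adjusted p = 2.48e-07). The histone demethylase gene kdm6ba was opposite, at 251 to 336 CPM in A and 1493 to 2232 CPM in E (2.58 ± 0.13, adjusted p = 1.28e-12). Of 62 nuclear pore and transport genes, 12 passed toward A and 2 toward E, the largest of these being the importin gene kpna6 (3.48 ± 0.18).

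The largest maternal differences toward A were in genes of no common list. The exonuclease gene exd2 was at 269, 227 and 272 CPM in A and at 31.1, 29.1 and 19.3 CPM in E (-3.33 ± 0.29, adjusted p = 9.55e-09). The gene ppp2r3b, which encodes a regulatory subunit of protein phosphatase 2A, was at 68.2 to 93.3 CPM in A and at 0, 4.76 and 6.92 CPM in E (-4.25 ± 0.31), the strongest animal bias of a maternal RNA by the naming rule. The metalloprotease gene adam8a was at 30.8 to 48.4 and 0 to 5.44 CPM, the coiled-coil gene ccdc102a at 298 to 354 and 28.6 to 43.0 CPM, and traip, which encodes a ubiquitin ligase of the replisome, at 78.8 to 112 and 3.71 to 14.8 CPM. All of them stepped down from A to E through every section.

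The maternal factors that start zygotic transcription did not lie together. The RNA of pou5f3, a pioneer transcription factor, was at 871, 916 and 1061 CPM in A and at 250.1, 283 and 310.4 CPM in E (-1.76 ± 0.14, adjusted p = 1.6e-09). Its partners nanog, at 1095 to 1188 and 1229 to 1363 CPM (0.20 ± 0.07, adjusted p = 0.0585), and sox19b, at 701 to 808 and 642 to 689.7 CPM (-0.17 ± 0.08, adjusted p = 0.218), did not pass the test. With DESeq2 nanog passed toward E (0.21, adjusted p = 0.0111), and with library totals it was at -0.01 while sox19b passed toward A (-0.37, adjusted p = 0.00447). The Nodal pathway factor foxh1 was at 199 to 204 CPM in A and 8.99 to 34.9 CPM in E (-3.20 ± 0.28, adjusted p = 1.18e-08), while the T-box factor eomesa was at 162 to 183 and 318 to 573 CPM (1.37 ± 0.16, adjusted p = 9.22e-07). The factors foxh1 and eomesa, both linked to Nodal target genes, were thus at opposite ends. In the Nodal and BMP list 3 of 27 genes passed toward E and 5 toward A, beside 8.1% and 7.49% of all rows. Among the latter was smurf1, a ubiquitin ligase gene for pathway Smads (-1.38 ± 0.11).

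Many rows that were scarce at 1 hpf and present at 3 hpf were at or near 0 in the vegetal end. Of 64 tested rows with a mean of less than 1 CPM at 1 hpf, 33 (51.6%) passed toward A and 1 toward E. Of all 70 such rows, 4 had their highest mean in A, 17 in B, 28 in C, 15 in D and 6 in E. Among rows with a mean of at least 5 CPM at 3 hpf and less than 1 CPM at 1 hpf, 22 in all, 20 passed toward A and 0 toward E by edgeR, counts that are the same at an unadjusted p under 0.05. Several of the 22 rows are miR-430 precursors, near-identical copies in a cluster among which reads cannot be divided reliably. The rows in these counts are thus not all separate RNAs. The choice of these rows fixes that some section was high and not which. Of the 22, 0 had their highest mean in A, 5 in B, 13 in C and 4 in D, and 14 had no count in any E library. Of the 12561 tested rows with at least 1 CPM at 1 hpf, 7.27% were higher in A.

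Of 18 early zygotic regulators tested, 11 passed toward A and 0 toward E, by edgeR, by DESeq2 and at an unadjusted p under 0.05. The gene klf17, a transcription factor gene of the enveloping layer, was at 24.2, 10.4 and 40.1 CPM in A and at 0, 2.12 and 0.494 CPM in E (-4.64 ± 0.75, adjusted p = 8.38e-05), with its highest mean of 47.5 CPM in C. The ventral repressor gene vox was at 6.05, 3.53 and 18.5 CPM in A and had no count in E, which is at least 15.7-fold lower at a floor of 3 counts over the 3 E libraries (adjusted p = 0.00901). The bHLH repressor gene her5, at 8.89, 0.221 and 29.2 CPM in A, was at least 21.5-fold lower in E, and the homeobox gene irx7, at 4.27, 0.441 and 18.8 CPM, at least 13-fold lower. Replicate 3 was highest and replicate 2 lowest in all 4 genes. The enveloping layer regulators grhl3 and gata3, at 3.77 and 6.71 CPM in A on average, passed too, so 3 of 6 enveloping layer genes were higher in A, while ppl, which the egg also carries, was not called (114 CPM in A, 108 CPM in E). The 7 early zygotic regulators that did not pass included sox3 (11.8 CPM in A, 19.5 CPM in E) and sox11a (13.6 and 14.2 CPM), and with them the summed level of the list in replicates 1 to 3 was 116, 58.0 and 208 CPM in A and 65.4, 50.3 and 53.4 CPM in E. The ranges of that sum overlapped, and replicate 2 had nearly the same sum at both ends.

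The miR-430 precursors are near-identical copies in a cluster, so how reads were divided among their rows is uncertain and the sum is more reliable. Their summed level in section A of replicates 1 to 3 was 155, 26.5 and 133 CPM, and in section E it was 0, 2.12 and 0 CPM. In section D it was 15.9, 135 and 127 CPM. Every A library was above every E library, although replicate 2 in A was far below the other two. Of 13 rows, 12 were higher in A. The row dre-mir-430a-2, for example, was at 42.9, 3.75 and 28.3 CPM in A and at 0, 2.12 and 0 CPM in E.

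These zygotic calls rest on few counts, and their number changed with the replicates used. Without replicate 1, 11 of 18 early zygotic regulators, 3 of 6 enveloping layer genes and 7 of 13 miR-430 rows passed. Without replicate 2, 8 of 18 early zygotic regulators and 11 of 13 miR-430 rows passed. Without replicate 2, without replicate 3 or without the block, 1 of the enveloping layer genes passed. Without replicate 3, 1 of 14 early zygotic regulators and 2 of 13 miR-430 rows passed, and without the replicate block 1 of 18 and 6 of 13. With the 6 libraries of the ends alone, 8 early zygotic regulators and 4 miR-430 rows were tested and 3 and 4 passed.

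**Figure D4:**
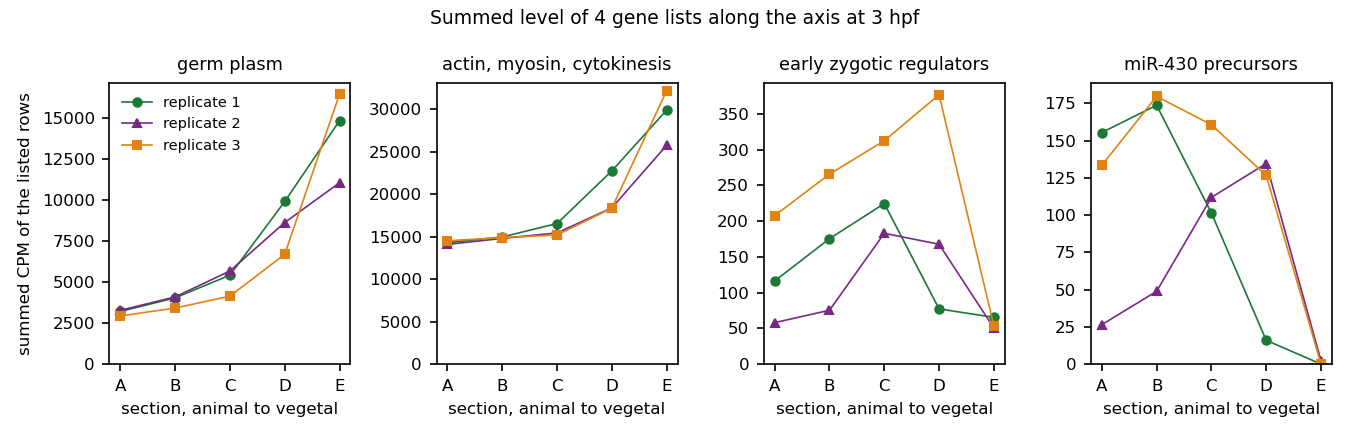
Summed CPM of all measured members of 4 gene lists in sections A to E at 3 hpf, 1 line per replicate, each panel from 0. Germ plasm and actomyosin RNAs climb to the vegetal tip, while early zygotic regulators and miR-430 precursors peak in B, C or D, with miR-430 at 0 to 2.12 CPM in E.

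Few genes of the proteasome and of mitochondria were called with the main scaling. Of 48 proteasome genes 1 was called (psme4a, higher in A), of 94 respiratory chain genes 6 (1 in E, 5 in A), of 60 mitochondrial ribosome genes 2 and of 42 mitochondrial import genes 3, against 15.6% of all rows. With library totals 8 proteasome and 8 mitochondrial ribosome genes passed, all toward A. Respiratory chain genes then had 1 call toward E and 15 toward A, and import genes 3 and 8. Of all 12625 rows, 721 and 2346 passed under that scaling. Of 73 cytosolic ribosomal proteins, 6 were slightly higher in E, with the largest difference of 0.74 in rpl17, but with library totals 1 was higher in E and 9 in A. Rab GTPases (7 of 53 in E, 3 in A), ubiquitin enzymes (15 of 93 and 11) and lysosome genes (7 of 59 and 4) had more calls toward E than toward A. So had splicing genes (11 of 110 and 2) and chaperones (6 of 91 in E). Beside 8.1% of all rows toward E, splicing genes were near that share and chaperones below it. All 5 of these lists had more calls toward A with library totals. The gene ube2q2, which encodes a ubiquitin-conjugating enzyme, was at 233 to 240.4 CPM in A and 1059 to 1608 CPM in E (2.52 ± 0.13, adjusted p = 2.41e-12). The gene lamtor1, which encodes a lysosomal anchor of mTORC1 signalling, was at 39.3 to 40.8 CPM in A and 249.8 to 333 CPM in E (2.92 ± 0.16, adjusted p = 5.11e-12). Secretory coat and ER genes had 20 of 167 calls toward A and 8 toward E, beside 7.49% of all rows toward A. Translation factors had 6 of 73 and 3, near the share of all rows toward A. The translation factor gene eif4g1a was at 456 to 548 CPM in A and 166 to 233 CPM in E (-1.30 ± 0.12).

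The other lists were mixed, with calls given here as toward E and toward A, beside 8.1% and 7.49% of all rows. Translational control and mRNA decay genes had 9 and 8 of 76, zinc finger genes 13 and 12 of 140, tubulins and microtubule-binding proteins 7 and 9 of 49, and genes with maternal-effect mutants 7 and 5 of 23. Adhesion and junction genes had 5 and 6 of 63, planar polarity and calcium genes 3 and 6 of 25, Fgf and MAPK genes 3 and 1 of 28, apoptosis genes 3 and 3 of 22, and yolk lipid genes 2 and 2 of 18. Histone genes had 4 and 2 of 39, DEAD and DEAH box helicases 2 of 48 toward E, and genome activation factors 4 and 3 of 17. Zinc finger, adhesion and helicase genes lay near or below both shares of all rows, while maternal-effect and tubulin genes lay above both. The medians of these 12 lists lay between -0.12 and 0.09, and with library totals the balance of calls moved toward A in each of them.

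Most vegetal RNAs were vegetal from the start. Of the rows higher in E at 3 hpf and tested at both stages, 667 (65.3%) were also higher in E at 1 hpf, which is 78.4% of the rows called there, and 0 were called in the opposite direction. For the rows higher in A the overlap was smaller, at 485 rows (53.2% of those at 3 hpf and 60.7% of those at 1 hpf), and 3 were called in the opposite direction. The difference in dazl was 6.0 ± 0.24 at 1 hpf and 6.51 ± 0.36 at 3 hpf, and in exd2 it was -3.90 ± 0.12 and -3.33 ± 0.29. Neither passed the test of the change itself (adjusted p = 0.723 and 0.592).

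That test, the E minus A difference at 3 hpf against the one at 1 hpf, passed for 88 of 12668 rows (0.695%), 41 toward E (0.324%) and 47 toward A (0.371%). The clearest changes were in pcnt and lrmp. At 1 hpf pcnt was vegetal, with 392 ± 273 CPM in A and 1053 ± 480 CPM in E (mean ± SD, n = 3), and a log2 difference of 1.43 ± 0.28. At 2 hpf it was 1555 and 535 CPM (n = 2), and at 3 hpf 1120 ± 61.9 and 112 ± 55.6 CPM. The change of -4.80 ± 0.50 had an adjusted p of 4.51e-07. For lrmp the ends were level at 1 hpf, with 332 ± 52.4 and 343 ± 90.5 CPM (n = 3), and the change was -3.68 ± 0.38 (adjusted p = 4.51e-07). Both genes passed under all 12 alternatives, with an adjusted p of at most 0.00331. The number of calls was less stable, at 6, 24 and 15 without replicate 1, 2 or 3, 15 without the block and 176 with DESeq2.

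Rows that moved toward E were of another kind. Of the 41, 22 were already higher in E at 1 hpf and became more so. The ion transporter slc12a2 went from a log2 difference of 2.26 ± 0.09 at 1 hpf to 3.27 ± 0.13 at 3 hpf (change 1.03 ± 0.18, adjusted p = 0.00355), with levels in A of 231 and 211 CPM and levels in E of 1075 and 2082 CPM. These levels were scaled within each stage, and which end moved was not tested. On that scale the level in A was nearly constant while that in E rose. The same held for slc4a2b (change 0.85 ± 0.20, adjusted p = 0.0392) and for ctsa, which encodes a lysosomal carboxypeptidase (0.81 ± 0.17, adjusted p = 0.0124). It did not hold for all of the 41 rows. From 1 to 3 hpf eml3 went from 91.4 to 42.2 CPM in A and from 74.9 to 75.1 CPM in E. In atp6v0b the level went from 71.7 to 28.7 CPM in A and from 83.4 to 66.7 CPM in E. Among the rows not called at 1 hpf and vegetal at 3 hpf were genes of the cell cortex, named after their values were seen. They were iqgap1, which encodes an actin scaffold (change 0.90 ± 0.17), lima1b, an actin crosslinker gene (1.07 ± 0.21), utrn, the utrophin gene (1.07 ± 0.21), and mylk5, a myosin light chain kinase gene (1.05 ± 0.22). How the changes of these cortex genes fared under the alternatives is not given here.

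Of the 47 rows that moved toward A, 44 were higher in A at 3 hpf, 3 of which were so at 1 hpf, and 6 of the 47 had been higher in E at 1 hpf. Besides pcnt, they included further centrosome and spindle genes, also named after their values were seen. These were cetn3, which encodes a centrin (-1.04 ± 0.16, adjusted p = 0.00152), the augmin subunit gene haus6 (-0.82 ± 0.16, adjusted p = 0.0078) and the centriole duplication gene stil, in its row stil_1 (-0.98 ± 0.22, adjusted p = 0.0299). Each had ends that did not differ by the test at 1 hpf, with log2 differences of 0.19, 0.10 and -0.10, and was lower in E at 3 hpf. How these changes fared under the alternatives is not given here. Without replicate 1, only 6 rows in all passed the test of the change.

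**Figure D5:**
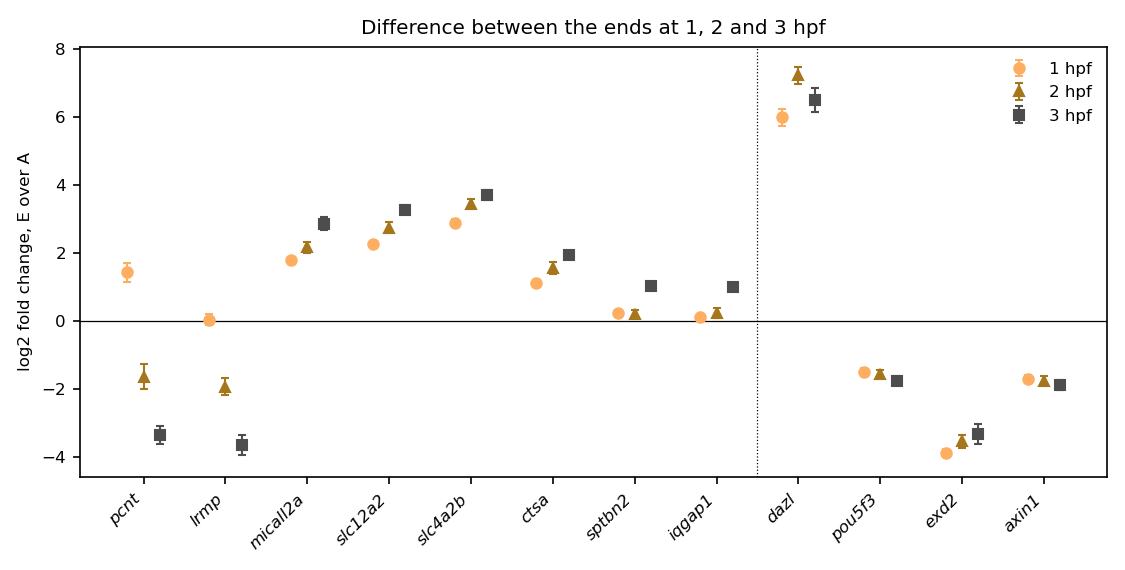
Fitted log2 fold change of E over A at 1, 2 and 3 hpf with its standard error, for 8 genes whose difference changed from 1 to 3 hpf (left of the dotted line) and 4 that did not pass that test. The gene pcnt crosses from 1.43 to -3.37, lrmp leaves 0 for -3.65, and the 4 genes on the right keep their side.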

How the data were processed

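The deposited table of whole-number read counts (12670 rows, 40 libraries) was used as the authors made it. Per the submitters' processing notes the build was GRCz11 and the tools were STAR 2.7.11, HTSeq 2.0.4, fastp 0.23.4 and DESeq2, with no roles stated. Libraries were strand-specific and made after lithium chloride precipitation, per the labels' protocols. Counts were tested with edgeR 4.0.16 (quasi-likelihood, TMM factors, filterByExpr) in R 4.3.3. The 15 libraries of 3 hpf shared 1 fit with the replicate number as a block and Benjamini-Hochberg adjustment over all rows, called at 0.05. The change from 1 hpf was an interaction over 40 libraries, with a block for each embryo sample. Same-numbered A and E libraries deviated together (correlations 0.373, 0.38 and 0.67), and the labels give sections of one number as 1 biological replicate. Replicates 1 and 2 correlated nearly as much with each other's number (0.304 and 0.257). CPM are counts over library total and TMM factor. Scripts were tested on simulated data. Alternatives were other scalings, DESeq2 1.42.0, other filters, thinned counts, no block and left-out libraries.

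The comparison and 43 gene lists were chosen with earlier results of these data known. Named genes are the 12 largest differences per direction (passing, same way in 3 of 3 replicates, at least 10 CPM), the 6 most abundant with at least 2-fold differences, up to 4 called members per list, the 4 largest changes from 1 hpf per direction, and fixed genes. Symbols with several rows (764) are kept as rows, and reads of similar copies may be split among them. Some list members are not reported here. P-values measure the spread left between libraries once section and replicate effects are fitted, with 3 replicates per section at 3 hpf. Depth limits rows under 3 counts in E.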

Additional observations from a re-analysis of the deposited data

Results flagged for a closer look

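A total of 17 named rows had a difference between the ends that itself differed between 1 and 3 hpf, by the interaction test of edgeR's quasi-likelihood fit with Benjamini-Hochberg adjustment. Values are the log2 difference E minus A at 3 hpf minus that at 1 hpf.

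Toward A, the centrosome scaffold gene pcnt changed by -4.80 and the nucleus attachment gene lrmp by -3.68. These passed under all 12 alternatives. The zygotic gene klf17 changed by -5.77, from a mean of 0.482 CPM in A and 1.41 CPM in E at 1 hpf. The redox sensor gene pir changed by -2.13, the replication nuclease row dna2_1 by -1.34, the chromatin remodeller gene chd2 by -0.76 and the histone gene regulator casp8ap2 by -0.58.

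Toward E, the RNase T2 gene rnaset2 changed by 1.64, the amino acid transporter gene slc7a3a by 1.32, the phosphatidylserine synthase gene ptdss2 by 1.24 and the microtubule-binding gene eml3 by 1.11. The cotransporter gene slc12a2 changed by 1.03, the proton pump subunit gene atp6v0b by 1.00, rab40c by 0.93, slc4a2b by 0.85, ctsa by 0.81 and ube2q2 by 0.68. Under its least favourable alternative the adjusted p was 0.183 for klf17 and between 0.266 and 0.436 for the 14 rows other than klf17, pcnt and lrmp.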

How the results depend on the processing

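Alternatives changed how many rows passed. Signs were compared for the 174 named rows only, which were chosen mainly among called rows with large differences. Over all rows, library totals moved the median log2 fold change from -0.02 to -0.22. The count higher in E moved by less than 1.5 times under every alternative and was 703 without the replicate block, with a range of 722 to 817 when a replicate was left out. The count higher in A was 458 without the replicate block, 618 with the 6 libraries of A and E alone, 2346 with library totals, and 638 to 649 without a replicate. All rows called without the block were among the calls with it. The number of changes from 1 to 3 hpf was 176 with DESeq2 and 15 without the replicate block, and 6 to 76 when a replicate or a library of low depth was left out (32 without section A of 1 hpf replicate 1, 76 without section E of 3 hpf replicate 1). Signs turned for buc, at -0.14 with library totals and -0.054 without replicate 3 (0.13 without replicate 2), and for nanog, at -0.011 with library totals. Of 174 named rows, 38 lost their call without the block, 35 without replicate 3, 21 without replicate 1, 19 without replicate 2, 9 with library totals, 9 with 6 libraries, where 15 more were not tested, and 1 with DESeq2. Calls were gained by 2 named rows with DESeq2 and by 1 with library totals. The cause was not tested. Section E, the shallowest, limits what could be detected for scarce RNAs. With all libraries thinned to the shallowest, 856 rows passed toward E and 774 toward A, of which 826 and 713 were among the calls without thinning.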

Other observations

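Some pairs of genes with similar symbols were called at opposite ends. Of 980 pairs of tested rows whose symbols differ by a final a or b, 52 had both members called, 17 pairs both in E, 22 both in A and 13 at opposite ends. Of all rows, 8.1% were called toward E and 7.49% toward A. Whether opposite calls were more frequent than among rows paired at random was not tested. These pairs were looked for after the values were seen, were matched by symbol alone, and were not tested as pairs. The Rab effector gene micall2a was at 448, 464 and 443 CPM in A and at 3965, 2844 and 3194 CPM in E (log2 2.87 ± 0.19), while micall2b was at 561, 542 and 551 CPM in A and at 56.4, 79.9 and 97.8 CPM in E (-2.85 ± 0.22). The groups did not overlap in either gene, and the directions were opposite.

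The inositol trisphosphate kinase gene itpkca was at 122.6 to 142 CPM in A and 467 to 617 CPM in E (1.98 ± 0.11), and itpkcb at 178 to 225 and 21.2 to 37.1 CPM (-2.74 ± 0.22). In a further pair, the microtubule minus-end gene camsap2a was higher in E (2.31 ± 0.35) and camsap2b higher in A (-3.14 ± 0.62), at means of at most 20.4 CPM. The phosphoinositide kinase gene pip5k1ab was strongly vegetal (3.14 ± 0.15) against a weak animal bias of pip5k1aa (-0.38 ± 0.11).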
